A study of Mus musculus with 13 samples.

Results

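The comparison described here is between 4 mice given lipopolysaccharide (LPS) together with the inhibitor CPD-4645 (LPS-CPD-4645) and 4 sham-vehicle mice, 8 of the 13 libraries of the series. The samples were chosen by their treatment labels, and every gene with enough counts was tested: 17285 of the 27934 genes that had a count in any library. The other 5 libraries, from mice given LPS and vehicle (LPS-vehicle), were used to sort the genes by what stayed changed, what was newly changed and what was no longer changed when CPD-4645 was given with LPS. RNA was sequenced from the isolated neurovasculature of whole brains of male CD1 mice, an outbred strain, aged 8 to 10 weeks. LPS, a bacterial cell wall component, was injected intraperitoneally (3 mg/kg) 3 times, with the second dose 6 h and the last 24 h after the first. Each LPS dose was followed by a subcutaneous injection of CPD-4645 (10 mg/kg in DMSO, Cremophor and saline), by 30 min according to the treatment protocol, although the sources do not all give the same delay. Sham-vehicle mice received phosphate-buffered saline and the vehicle, and all mice were euthanized at 28 h. Blood was not flushed from the brains used for sequencing, and RNA of blood cells may therefore be included. No sham group received CPD-4645, so the effects of LPS and of CPD-4645 cannot be told apart in a difference from sham-vehicle.

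Monoacylglycerol lipase (MAGL, encoded by *Mgll*) is the main brain enzyme that breaks down the endocannabinoid 2-arachidonoylglycerol (2-AG), and the arachidonic acid it releases is a precursor of prostaglandins. CPD-4645 inactivates MAGL covalently. The authors report that in mouse brain it also partly inhibited ABHD6 and FAAH, other hydrolases of endocannabinoids. The blood-brain barrier is formed by endothelial cells sealed by tight junctions and lined by pericytes and astrocyte endfeet. During systemic inflammation these cells display adhesion molecules, release chemokines and remodel their basement membrane, and circulating neutrophils and monocytes can attach to them.

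The 4 sham-vehicle libraries held 22314249 to 35587842 counts and the 4 LPS-CPD-4645 libraries 12548404 to 29348315, the shallowest of these 8 being that of LPS-CPD-4645 mouse 1. The 5 LPS-vehicle libraries ranged more widely, from 7813559 counts (mouse 3) to 55133373 (mouse 2). Mitochondrial transcripts took 6.47% to 12.7% of the counts in sham-vehicle and 3.97% to 8.17% in LPS-CPD-4645 libraries. Levels are given as CPM, counts scaled to a common library size with the trimmed mean of M-values (TMM). A library with no count for a gene allowed a level of up to 0.0856 to 0.148 CPM in sham-vehicle and 0.105 to 0.237 CPM in LPS-CPD-4645 mice, taken as 3 counts and covering counting error only. In LPS-vehicle mice this floor was 0.0538 to 0.378 CPM, highest in mouse 3. The tissue label was checked against marker genes on a scale of CPM per kilobase of exon. The endothelial marker *Pecam1* stood at 4.71 ± 0.955 (SD, n = 4), the pericyte marker *Pdgfrb* at 6.39 ± 1.02 and the astrocyte marker *Gfap* at 22.6 ± 5.88 in sham-vehicle mice, whereas the neuronal synaptophysin gene *Syp* stood at 458 ± 35.5. Summed per kilobase, the 15 endothelial markers reached 647 to 816 and the 12 neuron markers 1937 to 2210 in sham-vehicle mice, so vascular and astrocytic RNA was present alongside much neuronal RNA. In such bulk samples, fewer cells of a type and less RNA per cell cannot be told apart.

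A gene was called higher or lower when its edgeR adjusted p was at most 0.05 and its level differed by at least 2-fold. In LPS-CPD-4645 mice 1056 genes were higher than in sham-vehicle mice (6.11% of the genes tested) and 861 were lower (4.98%), 11.1% in all. The median log2 fold change was 1.82 among the higher genes, -1.39 among the lower genes and -0.01 over all genes tested, for which the quartiles were -0.38 and 0.34. The 2 groups did not overlap in 948 higher and 777 lower genes, against a background of 18.7% of all genes tested lying wholly higher and 18.8% wholly lower. The share called lower was 13.5% of 459 antisense transcripts, 12.7% of 448 long intergenic RNAs and 4.28% of 15147 coding genes. The libraries were stranded per the authors' methods. Reads of an antisense gene and of its partner may still not be separable, since the strand setting of the counts is not given in the sources used here. When the test asked whether the change exceeded 2-fold rather than whether it differed from 0, 404 genes were higher and 157 lower.

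**Figure D1:**
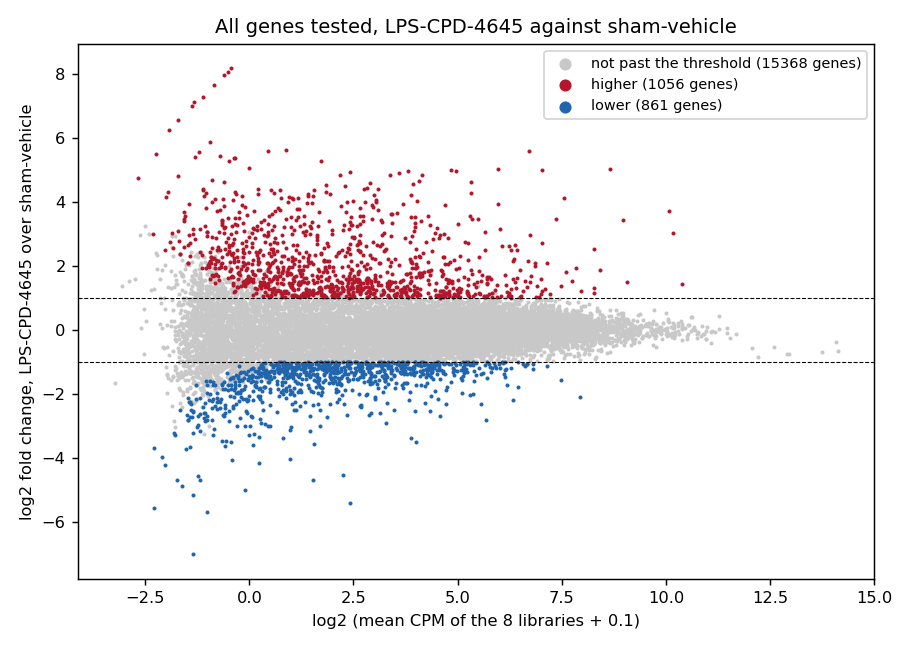
Log2 fold change of LPS-CPD-4645 over sham-vehicle (vertical axis) against the mean level of each gene in the 8 libraries (horizontal axis, log2 of CPM + 0.1), one point per gene, for 17285 genes. The 1056 higher genes are red, the 861 lower genes blue, and the dashed lines mark a 2-fold change; the points furthest from 0 at the left belong to genes with few counts in one group.

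The 10 largest rises and falls were taken among coding genes past the threshold with a mean of at least 1 CPM over the 8 libraries and no overlap between groups. The rises were 4 chemokine genes, the cytokine genes *Il6* and *Csf3*, the acute phase genes *Lcn2* and *Saa3*, and the receptor genes *Clec4e* and *Marco*. *Cxcl10*, an interferon-induced chemokine that draws activated T cells, stood at 9.70, 4.26, 1.67 and 0.790 CPM in sham-vehicle mice 1 to 4 and at 152, 433, 138 and 106 CPM in LPS-CPD-4645 mice 1 to 4. Mouse 2 was far above the other treated mice, and the log2 fold change was 5.57 ± 0.85 (SE, edgeR adjusted p = 5.91e-05). *Lcn2*, which encodes the iron-siderophore binding protein lipocalin-2, rose from 56.0, 24.1, 7.77 and 6.22 CPM to 853, 916, 676 and 668 CPM (log2 fold change 5.02 ± 0.50, edgeR adjusted p = 8.12e-07). The treated mice lay close together for *Lcn2*, while sham-vehicle mice 1 and 2 lay above mice 3 and 4. *Saa3*, an acute phase apolipoprotein, rose from 14.4, 9.77, 3.90 and 2.96 CPM to 291, 345, 212 and 163 CPM (4.98 ± 0.51, edgeR adjusted p = 9.77e-07), with the highest sham-vehicle value in mouse 1. *Cxcl9*, a second ligand of the receptor CXCR3, had at most 3 counts in any sham-vehicle library and 3.56, 4.76, 4.03 and 1.41 CPM in treated mice, 29.0-fold higher with each sham-vehicle library set at a floor of 3 counts.

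The remaining members of the 10 largest rises were *Clec4e*, a receptor for microbial and damaged-cell glycolipids, *Il6*, the neutrophil chemokine *Cxcl1*, the monocyte chemokine *Ccl3*, the granulocyte growth factor *Csf3* and the scavenger receptor *Marco*. Their log2 fold changes were between 4.96 and 5.60. *Il6* was at 0.171, 0, 0.159 and 0.296 CPM in sham-vehicle mice and at 14.2, 5.21, 1.17 and 4.43 CPM in treated mice, a wide spread among treated mice that did not reach the sham-vehicle values (5.27 ± 1.02, edgeR adjusted p = 0.000558). limma-voom did not call *Il6* (adjusted p = 0.124) or *Clec4e* (adjusted p = 0.0500448). Sham-vehicle mouse 1 held the highest sham-vehicle value for *Clec4e*, *Cxcl10*, *Lcn2*, *Cxcl1*, *Ccl3*, *Saa3*, *Csf3* and *Marco*. Without that mouse their calls held and, for example, the log2 fold change was 5.93 for *Lcn2*, 6.21 for *Cxcl1* and 6.49 for *Cxcl10*, and 1026 genes were higher and 796 lower over the whole comparison. Without LPS-CPD-4645 mouse 2 the log2 fold change of *Cxcl10* was 4.92, and without LPS-CPD-4645 mouse 1 that of *Il6* was 4.53.

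The 10 largest falls included 2 microglial and 5 transporter genes. *Gpr34*, a lysophosphatidylserine receptor of microglia, was at 10.7, 12, 9.56 and 8.74 CPM in sham-vehicle mice and at 0.553, 0.175, 0 and 0.353 CPM in LPS-CPD-4645 mice (log2 fold change -5.42 ± 0.54, edgeR adjusted p = 8.21e-07). *Slc38a5*, a glutamine transporter of brain endothelium, fell from 10.9, 8.45, 10.1 and 6.32 CPM to 0.553, 0.595, 0 and 0.432 CPM (-4.54 ± 0.49, edgeR adjusted p = 1.65e-06). Even the lowest sham-vehicle mouse was far above the highest treated mouse for both genes. *P2ry12*, the ADP receptor that guides microglial processes, fell from 34.0, 20.3, 29.6 and 23.6 CPM to 2.85, 2.03, 2.67 and 2.83 CPM (-3.38 ± 0.24, edgeR adjusted p = 2.65e-08). *Slc22a8*, the organic anion transporter OAT3, fell from 34.2, 26.0, 29.5 and 26.2 CPM to 4.35, 1.96, 1.96 and 2.35 CPM (-3.50 ± 0.28, edgeR adjusted p = 6.09e-08). The spread of both genes within each group was small beside the gap. The arterial gene *Gkn3* (-4.69), the transporter genes *Abcc6* (-4.18), *Slc22a6* (-3.18) and *Slc47a1* (-3.03), *Cytl1* (-3.34) and *AU021092* (-3.58) completed the 10 largest falls. *Gpr34* and *P2ry12* overlap genes on the other strand, and *AU021092* overlaps a microRNA gene on its own strand.

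**Figure D2:**
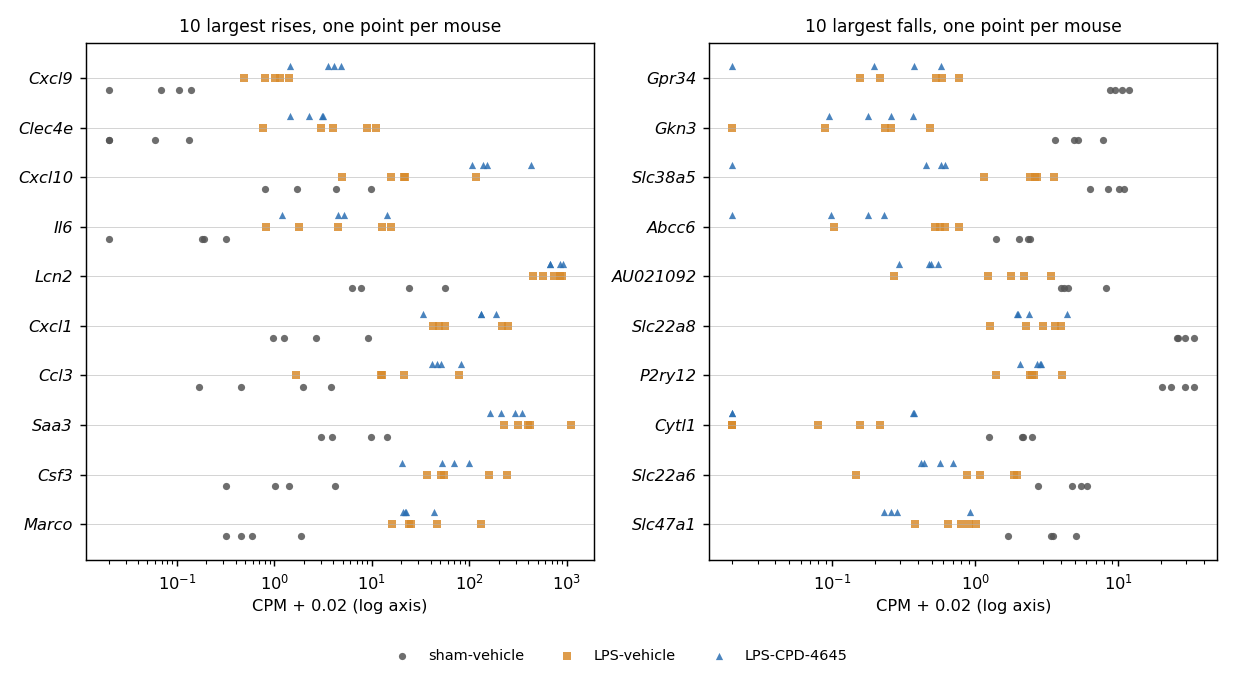
CPM + 0.02 on a log axis for the 10 largest rises (left) and the 10 largest falls (right), one point per mouse, with sham-vehicle mice as grey circles, LPS-CPD-4645 mice as blue triangles and LPS-vehicle mice as orange squares. The genes were picked among those with a mean of at least 1 CPM whose sham-vehicle and LPS-CPD-4645 points do not overlap; *Cxcl10* in LPS-CPD-4645 mouse 2 (433 CPM) stands apart from the other 3 treated mice.

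The promoters of *Cxcl10*, *Rsad2* and *Ciart* are shown because these genes belong to the interferon and clock groups described next. Each is the 250 bases before the RefSeq start site on GRCm38.p6, printed 5′ to 3′ along the gene, with capitals marking the core of an interferon-stimulated response element (ISRE, letters GAAANNGAA) or an E-box (letters CACGTG) on either strand.
*Cxcl10* (chr5:92348890-92349139, minus strand): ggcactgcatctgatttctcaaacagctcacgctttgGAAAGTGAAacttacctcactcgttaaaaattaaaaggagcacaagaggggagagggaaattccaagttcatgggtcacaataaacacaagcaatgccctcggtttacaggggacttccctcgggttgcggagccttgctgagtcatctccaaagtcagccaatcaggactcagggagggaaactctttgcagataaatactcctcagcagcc
*Rsad2* (chr12:26456453-26456702, minus strand): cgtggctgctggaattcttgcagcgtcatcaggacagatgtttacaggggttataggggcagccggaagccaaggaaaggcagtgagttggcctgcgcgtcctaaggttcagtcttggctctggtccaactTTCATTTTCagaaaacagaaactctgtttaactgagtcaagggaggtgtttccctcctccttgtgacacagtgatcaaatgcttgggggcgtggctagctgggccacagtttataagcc
*Ciart* (chr3:95882229-95882478, minus strand): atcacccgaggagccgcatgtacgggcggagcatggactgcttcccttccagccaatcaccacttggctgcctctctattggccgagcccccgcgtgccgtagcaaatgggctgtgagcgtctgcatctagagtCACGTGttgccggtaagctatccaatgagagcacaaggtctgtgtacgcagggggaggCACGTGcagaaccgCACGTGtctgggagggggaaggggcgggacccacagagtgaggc
*Cxcl10* and *Rsad2* each held 1 ISRE core and *Ciart* held 3 E-boxes. Of 27025 genes with a promoter entry, 8.18% held the ISRE core and 6.86% an E-box in at least 1 window of this length. A match is a stretch of letters and not a measured binding site.

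Of 22 chemokines tested 15 were higher and 1 was lower (median log2 fold change 2.87, against -0.01 over all genes), of 30 cytokines and receptors 18 were higher and 2 lower (1.68), of 24 Toll-like receptor and inflammasome genes 12 were higher (1.01), and of 19 NF-kB subunits and inhibitors 9 were higher (1.0). limma-voom called 8 chemokines higher, and 2 were lower without LPS-CPD-4645 mouse 1. *Tnf* rose from 1.08, 0.845, 0.199 and 0.198 CPM to 21.8, 9.41, 9.33 and 13.2 CPM (4.43 ± 0.52, edgeR adjusted p = 4.17e-06). *Tlr2*, a receptor for bacterial lipoproteins, rose from 2.85, 1.49, 1.59 and 1.28 CPM to 36.4, 29.4, 30.5 and 25 CPM (4.03 ± 0.29, edgeR adjusted p = 2.82e-08), and *Cd14*, the LPS co-receptor, rose with a log2 fold change of 3.57 ± 0.32. The treated values were narrowly spread for both receptors. *Nfkbia*, the gene of the NF-kB inhibitor I-kappa-B-alpha, rose from 32.5, 26.7, 34.2 and 44.3 CPM to 215, 279, 175 and 228 CPM (2.70 ± 0.22, edgeR adjusted p = 8.04e-08), and the NF-kB regulators *Bcl3* (3.84) and *Tnfaip3* (2.84) rose with it. The shares called lower, 4.55% of the chemokines and 6.67% of the cytokines and receptors, were near the 4.98% of all genes tested. The lower members were *Cxcl12* (-1.20 ± 0.14), a chemokine made constitutively by brain endothelium, the G-CSF receptor gene *Csf3r* (-1.79 ± 0.39) and the alarmin gene *Il33* (-1.40 ± 0.23). *Cxcl12* fell from 87.1, 90.8, 96.6 and 65.2 CPM to 42.2, 37.2, 37.1 and 31.4 CPM, without overlap between groups.

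Interferon-induced genes rose in most cases. All 31 type I interferon response genes tested had log2 fold changes above 0 and 24 were higher (median 1.90), and 14 of 15 interferon-induced GTPases were higher (3.34). *Rsad2*, which encodes the antiviral enzyme viperin, stood at 2.51, 0.402, 1.79 and 1.53 CPM in sham-vehicle mice and at 16, 31.5, 15.6 and 14.1 CPM in treated mice (3.60 ± 0.43, edgeR adjusted p = 5.37e-06). *Ifi47*, an interferon-gamma induced GTPase, rose from 1.94, 1.77, 1.79 and 0.741 CPM to 19.7, 42.5, 23.7 and 10.4 CPM (3.92 ± 0.43, edgeR adjusted p = 2.06e-06). LPS-CPD-4645 mouse 2 was the highest treated mouse for *Cxcl9*, *Cxcl10*, *Rsad2* and *Ifi47*. These 4 genes were also higher in LPS-CPD-4645 than in LPS-vehicle mice, by 1.87, 2.64, 1.84 and 1.56 on the log2 scale (edgeR adjusted p = 0.00305, 0.0066, 0.00115 and 0.00295), though the treated groups overlapped for *Cxcl10* and *Ifi47*. Over their lists in the same contrast, 3 of 31 type I interferon response genes were higher and 2 lower (median -0.32), 2 of 15 interferon-induced GTPases were higher and 0 lower (0.71), and 3 of 22 chemokines were higher and 5 lower (-0.11). Of all genes tested, 1.7% were higher and 4.19% lower in this contrast. MHC class I presentation genes followed with 11 of 19 higher (1.52), among them the peptide transporter gene *Tap1* (3.30 ± 0.30) and the class I transactivator gene *Nlrc5* (3.81 ± 0.47). Of 10 MHC class II presentation genes 1 was higher (10.0%, against 6.11% of all genes tested), the lysosomal thiol reductase gene *Ifi30* (1.75 ± 0.24).

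Most acute phase and complement genes were higher. Of 17 acute phase genes 14 were higher (median 3.22), and of 17 complement genes 10 were higher (1.09), led by the anaphylatoxin receptor genes *C3ar1* (3.46 ± 0.42) and *C5ar1* (2.99 ± 0.30). *Mt2*, a metallothionein that binds zinc and copper, rose from 233, 176, 124 and 76.9 CPM to 1743, 2483, 1870.1 and 1881 CPM (3.71 ± 0.29, edgeR adjusted p = 5.74e-08). The iron exporter ferroportin, encoded by *Slc40a1*, fell from 15.9, 11.3, 15.3 and 9.43 CPM to 4.03, 2.27, 3.43 and 2.04 CPM (-2.17 ± 0.24, edgeR adjusted p = 2.03e-06). In the metallothionein and iron list 9 of 20 genes were higher, 1 was lower (5.0%, near the 4.98% of all genes tested) and 10 did not pass (median 0.43).

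**Figure D3:**
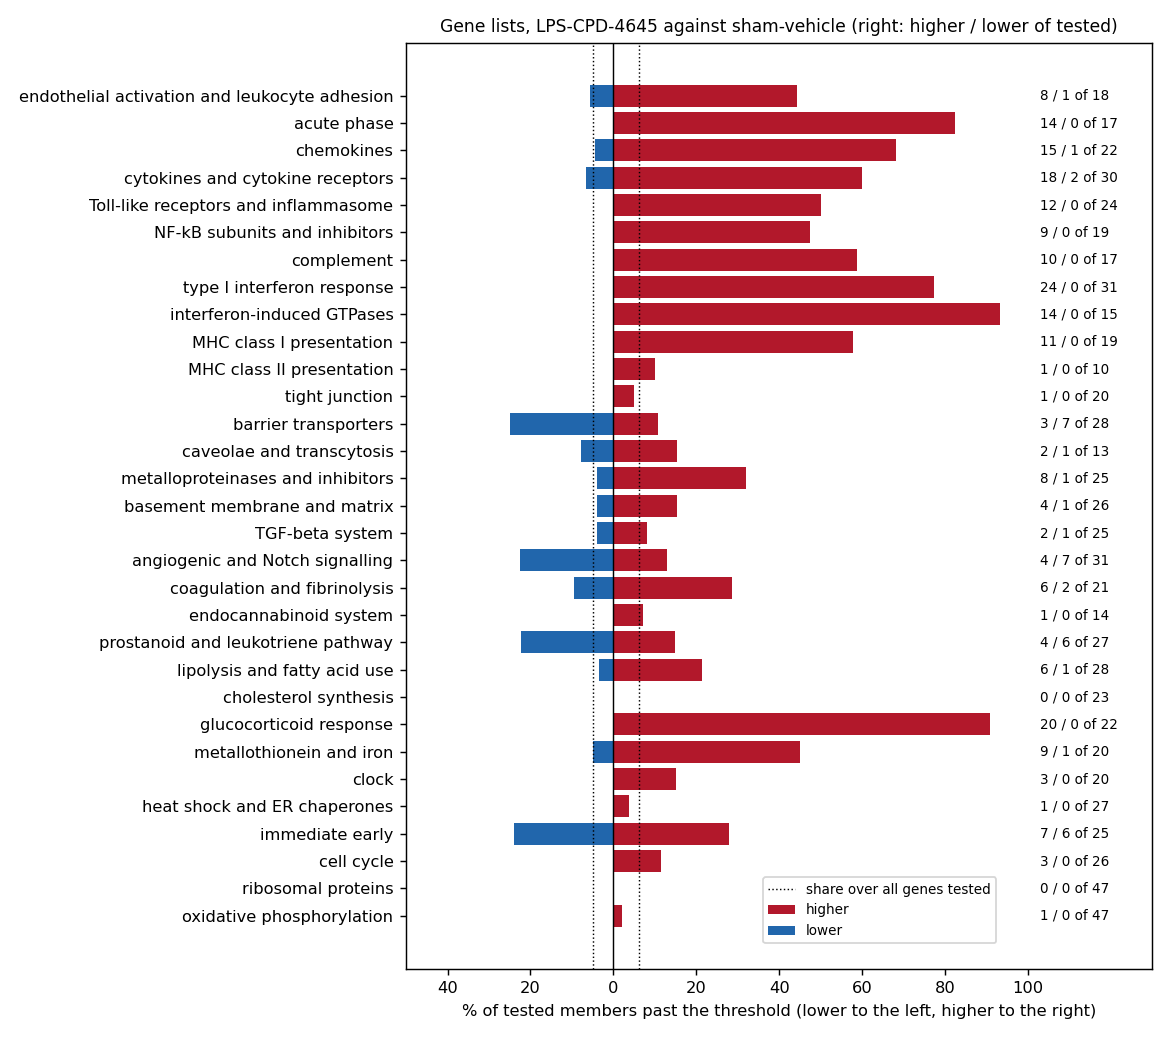
Percentage of the tested members of each gene list called higher (red, to the right) or lower (blue, to the left) in LPS-CPD-4645 against sham-vehicle mice; the numbers at the right give higher / lower of tested, and the dotted lines mark the shares over all genes tested, 6.11% and 4.98%. The interferon-induced GTPases (14 of 15), the glucocorticoid response (20 of 22) and the acute phase list (14 of 17) had the highest shares of higher genes among the lists drawn, which leave out the cell type markers, and barrier transporters (7 of 28) the highest share of lower genes among them.

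Of 18 genes of endothelial activation and leukocyte adhesion 8 were higher, 1 was lower (5.56%, near the 4.98% of all genes tested) and 9 did not pass (median 0.61). *Selp*, which encodes P-selectin, was at 0.257, 0.563, 0.159 and 0.198 CPM in sham-vehicle mice and at 7.51, 5.98, 2.45 and 3.06 CPM in LPS-CPD-4645 mice (3.96 ± 0.45, edgeR adjusted p = 3.04e-06). *Sele*, which encodes E-selectin, had no count in 3 sham-vehicle mice and 0.428 CPM in mouse 1, and stood at 7.27, 2.45, 1.17 and 1.30 CPM in treated mice (4.37 ± 0.85, edgeR adjusted p = 0.000599). The log2 fold change of *Sele* was 3.58 without LPS-CPD-4645 mouse 1, and without sham-vehicle mouse 1 the sham-vehicle side had no count. Both selectins were lower in LPS-CPD-4645 than in LPS-vehicle mice, whose means were 16.6 ± 6.07 CPM for *Selp* and 9.88 ± 6.31 CPM for *Sele* (SD, n = 5), by -1.84 and -1.78 on the log2 scale (edgeR adjusted p = 0.000508 and 0.0284). *Icam1* rose from 12.5, 10.0, 3.94 and 4.20 CPM to 163, 140, 83.7 and 85.8 CPM (3.91 ± 0.41, edgeR adjusted p = 1.39e-06). *Vcam1* rose from 20.9, 19.0, 21.2 and 18.2 CPM to 56.4, 58.1, 27.5 and 33.7 CPM (1.14 ± 0.19, edgeR adjusted p = 0.000149), with treated mice 3 and 4 nearer to the sham-vehicle mice than mice 1 and 2. Without LPS-CPD-4645 mouse 2 the log2 fold change of *Vcam1* was 0.97, under the 2-fold limit. The fibronectin receptor subunit gene *Itga5* rose by 1.22 ± 0.19, and *Selplg*, the leukocyte ligand of P-selectin, fell from 25.1, 29.6, 27.8 and 23.1 CPM to 8.30, 3.64, 2.90 and 3.85 CPM (-2.56 ± 0.34, edgeR adjusted p = 1.54e-05). Which cells held the *Selplg* RNA in these bulk samples was not tested. *Vwf*, the von Willebrand factor gene, did not pass the threshold, at 10.4, 12.7, 11.8 and 6.27 CPM against 13.8, 17.5, 8.39 and 10.3 CPM (0.27 ± 0.33, edgeR adjusted p = 0.543).

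Of 20 tight junction genes 1 was higher (5.0%, near the 6.11% of all genes tested), the adherens junction cadherin gene *Cdh5*, which rose from 32.1, 26.7, 26.9 and 21.2 CPM to 59.8, 58.8, 59.1 and 55.5 CPM (1.12 ± 0.17, edgeR adjusted p = 5.33e-05); the list's median was 0.01 and its range -0.73 to 1.48. At an adjusted p of at most 0.05 whatever the fold, 6 members were higher and 2 lower. DESeq2 and limma-voom each called 2 members higher, as did the edgeR fit without sham-vehicle mouse 4, without LPS-CPD-4645 mouse 1 or without LPS-vehicle mouse 2. *Cldn5*, *Ocln* and *Tjp1*, named after their values were seen because they encode the defining strand proteins and their scaffold, had log2 fold changes of 0.08 ± 0.19, -0.55 ± 0.26 and -0.07 ± 0.11 (edgeR adjusted p = 0.752, 0.101 and 0.615). Of 28 barrier transporters 3 were higher and 7 lower (median -0.11). Besides *Slc38a5*, *Slc22a8* and *Slc40a1*, the lower members were the thyroid hormone and organic anion transporters *Slco1c1* (-2.03) and *Slco2b1* (-2.50), the thiamine transporter *Slc19a3* (-1.97) and the P-glycoprotein gene *Abcb1a* (-1.36). The second P-glycoprotein gene, *Abcb1b*, rose from 3.71, 2.13, 1.63 and 0.444 CPM to 6.40, 7.73, 8.28 and 10.0 CPM (2.00 ± 0.49, edgeR adjusted p = 0.00331). The paralogs *Abcb1a* and *Abcb1b* share sequence, and reads may have been split between them. *Mfsd2a*, a lipid transporter that restrains transcytosis, rose from 37.5, 41.8, 38.8 and 24.3 CPM to 98.2, 77.2, 71.8 and 66.7 CPM (1.13 ± 0.15, edgeR adjusted p = 1.11e-05), and *Cav1*, the structural gene of caveolae, fell by 1.74 ± 0.18 on the log2 scale. *Plvap*, a diaphragm protein of fenestrated vessels, rose from 17.1, 6.39, 19.5 and 17.0 CPM to 26.2, 41.5, 34.4 and 36.3 CPM (1.21 ± 0.23, edgeR adjusted p = 0.000461). The rise of *Plvap* was 0.97 on the log2 scale without sham-vehicle mouse 2, under the 2-fold limit.

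Of 25 metalloproteinases and inhibitors 8 were higher, 1 was lower (4.0%, near the 4.98% of all genes tested) and 16 did not pass (median 0.55). *Mmp3* rose from 0.827, 0.161, 0.159 and 0 CPM to 8.38, 22.6, 5.83 and 3.92 CPM (4.93 ± 0.78, edgeR adjusted p = 8.22e-05), and the log2 fold change was 6.44 without sham-vehicle mouse 1 and 4.17 without LPS-CPD-4645 mouse 2. *Timp1*, the tissue inhibitor of these enzymes, rose with a log2 fold change of 4.41 ± 0.39. *Adamts1* rose from 15.1, 8.89, 9.16 and 9.63 CPM to 94.5, 121, 63.8 and 80.3 CPM (3.06 ± 0.24, edgeR adjusted p = 5.77e-08), *Adamts9* by 2.21 ± 0.18 and *Adamts14* by 1.87 ± 0.36. *Mmp9* (1.16 ± 0.29, edgeR adjusted p = 0.00447) and *Mmp19* (1.05 ± 0.35, edgeR adjusted p = 0.0237) were nearer to the 2-fold limit. *Mmp19* lost its call under limma-voom (adjusted p = 0.0553) and without sham-vehicle mouse 2, sham-vehicle mouse 4 or LPS-CPD-4645 mouse 1 (log2 fold changes 0.82, 1.02 and 0.76). *Adamts4* did not pass, at 15.3, 13.1, 16.5 and 19.8 CPM against 14.1, 15.2, 15.8 and 7.10 CPM (-0.31 ± 0.28, edgeR adjusted p = 0.405). *Tgfb1* did not pass either, at 6.99, 6.56, 6.57 and 3.85 CPM against 6.01, 6.44, 6.29 and 5.42 CPM (0.01 ± 0.21, edgeR adjusted p = 0.988). In the basement membrane list 4 of 26 genes were higher (15.4%, against 6.11% of all genes tested), 1 was lower (3.85%, near the 4.98% of all genes tested) and 21 did not pass (median 0.00). The lower count was 3 without LPS-CPD-4645 mouse 1, and 2 without sham-vehicle mouse 2, sham-vehicle mouse 4 or LPS-CPD-4645 mouse 2 and under limma-voom. *Col4a1*, a main chain of basement membrane collagen, rose from 65.8, 49.3, 56.5 and 50.9 CPM to 178, 177, 136 and 135 CPM (1.49 ± 0.13, edgeR adjusted p = 2.18e-07). The lower member was another basement membrane collagen gene, *Col15a1* (-1.65 ± 0.28, edgeR adjusted p = 0.000149), named after its value was seen.

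Angiogenic genes moved both ways, with 4 of 31 higher and 7 lower (median -0.33). *Angpt2*, the ligand that opposes Tie2 signalling, rose from 2.17, 2.33, 2.03 and 1.58 CPM to 29.3, 15.4, 7.79 and 11.5 CPM (2.95 ± 0.36, edgeR adjusted p = 6.08e-06), and *Tek*, the gene of Tie2 itself, fell from 17.3, 10.8, 16.8 and 9.78 CPM to 5.93, 5.60, 5.31 and 4.20 CPM (-1.39 ± 0.33, edgeR adjusted p = 0.00292). The Wnt and norrin receptor gene *Fzd4* rose by 1.81 ± 0.17, and the apelin receptor gene *Aplnr* fell by 2.93 ± 0.59 on the log2 scale. Without sham-vehicle mouse 2 or without LPS-CPD-4645 mouse 2, 2 angiogenic genes were higher. In the coagulation list 6 of 21 genes were higher and 2 lower, 1 lower without sham-vehicle mouse 1 or without LPS-CPD-4645 mouse 4. The urokinase receptor gene *Plaur* rose from 1.80, 1.81, 1.67 and 1.48 CPM to 23.5, 19.4, 21.2 and 21.3 CPM (3.65 ± 0.30, edgeR adjusted p = 8.73e-08).

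Transcripts of the drug's main target, of the other hydrolases it partly inhibited and of the 2-AG receptors did not pass the threshold. *Mgll* was at 104, 115, 112 and 104 CPM in sham-vehicle mice and at 122, 123, 110 and 108 CPM in LPS-CPD-4645 mice (0.09 ± 0.09, edgeR adjusted p = 0.47). The log2 fold changes were -0.16 ± 0.12 for *Abhd6* and -0.08 ± 0.08 for *Faah*, hydrolases of endocannabinoids, -0.42 ± 0.11 for the CB1 receptor gene *Cnr1* and 1.5 ± 0.71 for the CB2 receptor gene *Cnr2* (edgeR adjusted p = 0.3, 0.447, 0.00562 and 0.102). *Cnr2* was below 1 CPM in all 8 libraries. Of 14 endocannabinoid system genes 1 was higher (7.14%, near the 6.11% of all genes tested): *Gpr18*, a receptor for lipid ligands, had no count in the 4 sham-vehicle libraries and 0.949, 1.33, 1.62 and 1.22 CPM in treated mice, at least 10.8-fold higher with each sham-vehicle library at its floor of 3 counts. *Gpr18* overlaps *Ubac2* on the other strand. Enzyme activity and lipid levels were not measured in these files.

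Of 27 prostanoid and leukotriene genes 4 were higher, 6 were lower and 17 did not pass (median -0.23). *Ptgs2*, the inducible cyclooxygenase gene, rose from 7.99, 5.51, 6.13 and 9.68 CPM to 48.1, 33.1, 13.6 and 32.7 CPM (2.11 ± 0.38, edgeR adjusted p = 0.000311), and *Alox12*, a lipoxygenase gene, fell by 2.94 ± 0.71 on the log2 scale. Without LPS-CPD-4645 mouse 3, 2 genes of this list were higher and 3 lower, and limma-voom called 2 higher. Of 28 genes of lipolysis and fatty acid use 6 were higher, 1 was lower (3.57%, near the 4.98% of all genes tested) and 21 did not pass (median 0.20). *Pnpla2*, the adipose triglyceride lipase gene, rose from 28.9, 25.2, 22.3 and 20.2 CPM to 170, 212, 209 and 162 CPM (2.96 ± 0.14, edgeR adjusted p = 3.22e-10) and was also higher than in LPS-vehicle mice, whose mean was 79.9 ± 12.9 CPM (1.23 on the log2 scale, edgeR adjusted p = 3.89e-06). Of 22 glucocorticoid response genes 20 were higher (median 2.27) and all 22 had log2 fold changes above 0. Several members of this list are also on others (*Lcn2*, *Mt2*, *Plin4*, *Nfkbia* and *Per1*). *Map3k6* rose from 6.93, 3.66, 1.95 and 2.62 CPM to 83.6, 83.6, 80 and 55.0 CPM (4.27 ± 0.28, edgeR adjusted p = 1.21e-08). None of 23 cholesterol synthesis genes and none of 47 ribosomal protein genes passed by edgeR, DESeq2 or limma-voom, with medians of -0.21 and 0.35. At an unadjusted p under 0.05 by edgeR, 2 cholesterol synthesis genes were higher and 9 lower. All 47 ribosomal protein genes had log2 fold changes above 0, and 41 were higher at an unadjusted p under 0.05, with changes of less than 2-fold.

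Of 25 immediate early genes 7 were higher, 6 were lower and 12 did not pass (median 0.18). The activity-regulated transcription factor gene *Npas4* fell from 8.76, 11, 16.2 and 16.1 CPM to 2.53, 2.10, 4.63 and 2.63 CPM (-2.12 ± 0.27, edgeR adjusted p = 7.79e-06), and *Egr1* fell from 218, 205, 264 and 375 CPM to 78.2, 90.9, 79.9 and 107 CPM (-1.57 ± 0.18, edgeR adjusted p = 2.59e-06). The rising members included the stress gene *Atf3* (2.72 ± 0.40) and the mRNA decay factor gene *Zfp36* (2.75 ± 0.27). Of 20 clock genes 3 were higher and 17 did not pass (median 0.28), and all 3 higher genes were of the newly changed class described next. *Per1*, a circadian repressor gene that is also induced by glucocorticoids, stood at 52.6, 47.3, 57.9 and 58.8 CPM in sham-vehicle mice and at 199, 241, 243 and 229 CPM in LPS-CPD-4645 mice (2.07 ± 0.10, edgeR adjusted p = 3.22e-10), with an LPS-vehicle mean of 89.8 ± 8.93 CPM (SD, n = 5). That mean was itself above every sham-vehicle value, although *Per1* was not called in LPS-vehicle against sham-vehicle mice. *Ciart*, the clock repressor gene whose promoter is printed above, rose from 12.9, 18.3, 13.9 and 12.8 CPM to 32.5, 44.3, 40.4 and 41.0 CPM (1.45 ± 0.15, edgeR adjusted p = 9.11e-07), and *Cry1* rose by 1.19 ± 0.13. The time of day of dosing and collection is not given in the sources used here.

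Genes were then sorted by their calls in 3 contrasts of the same fit. A gene stayed changed when it was called in the same direction against sham-vehicle mice, the shared controls, in each of the treated groups. It was newly changed when it was called in LPS-CPD-4645 against both other groups and not in LPS-vehicle against sham-vehicle, and no longer changed when LPS-vehicle differed from both other groups and LPS-CPD-4645 did not pass against sham-vehicle. Against sham-vehicle, 809 genes were higher (4.68%) and 172 lower (0.995%) in LPS-vehicle mice, 5.68% in all. Between the treated groups, 294 genes were higher (1.7%) and 725 lower (4.19%) in LPS-CPD-4645 mice, 5.9% in all. Of the genes tested, 561 stayed higher (3.25%) and 114 stayed lower (0.66%). Another 189 genes were newly higher (1.09%) and 356 newly lower (2.06%). The no longer changed genes were 88 that had been higher (0.509%) and 5 that had been lower (0.0289%). By edgeR, 0 genes were called in opposite directions in the 2 treated groups. A further 306 higher and 391 lower genes in LPS-CPD-4645 mice were called in neither contrast with LPS-vehicle mice and cannot be placed.

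Most genes that stayed changed showed no call between the treated groups. Among the 561 genes that stayed higher, 57 were lower and 23 higher in LPS-CPD-4645 than in LPS-vehicle mice and 481 had no call. Their median log2 fold change was 2.14 in LPS-CPD-4645 and 2.30 in LPS-vehicle mice. Among the 114 that stayed lower, 11 were lower still, 1 was higher and 102 had no call (medians -1.84 and -1.49). *Slc38a5*, *Abcc6* and *AU021092* fell further than in LPS-vehicle mice, by -2.74, -2.09 and -2.10 on the log2 scale (edgeR adjusted p = 0.000388, 0.0315 and 0.00293). *Fabp7*, a brain fatty acid binding protein gene, fell from 38.7, 32.9, 47.4 and 30.1 CPM to 8.38, 8.25, 10.1 and 6.48 CPM (-2.17 ± 0.25, edgeR adjusted p = 3.99e-06) and was also below LPS-vehicle mice (-1.16, edgeR adjusted p = 0.00162).

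The newly higher genes were led by *Hao1*, a peroxisomal glycolate oxidase gene. It was at 0.171, 0.121, 0.239 and 0.543 CPM in sham-vehicle mice, at a mean of 0.292 ± 0.107 CPM (SD, n = 5) in LPS-vehicle mice and at 4.90, 4.30, 3.58 and 6.75 CPM in LPS-CPD-4645 mice (4.22 ± 0.45, edgeR adjusted p = 1.54e-06). *Slc17a9*, the vesicular nucleotide transporter gene, rose from 1.40, 0.161, 0.518 and 0.296 CPM to 10.4, 10.9, 11.9 and 8.20 CPM (4.03 ± 0.47, edgeR adjusted p = 3.68e-06). LPS-CPD-4645 mice were tightly grouped for both genes, and both other groups lay below them. Sham-vehicle mouse 1 was well above the other sham-vehicle mice for *Slc17a9*. *Crtam*, a cell surface molecule of activated lymphocytes, was more spread among treated mice, at 8.78, 2.34, 4.33 and 0.942 CPM, against 0.285, 0.523, 0.0797 and 0 CPM in sham-vehicle mice (4.11 ± 0.78, edgeR adjusted p = 0.000467). The log2 fold change of *Crtam* was 3.46 without LPS-CPD-4645 mouse 1 and 4.82 without sham-vehicle mouse 2. The cytochrome P450 gene *Cyp3a57* (4.16 ± 0.70) and *Gm2564* (4.11 ± 0.81) were the other leading members. *Cyp3a57* belongs to a multigene family whose reads may be split among copies, and without sham-vehicle mouse 1 its log2 fold change was 5.39. Over the 189 newly higher genes, of which 136 are protein coding, the median log2 fold change against sham-vehicle was 2.07 in LPS-CPD-4645 and 0.26 in LPS-vehicle mice, a difference that the choice of the class uses.

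Newly lower genes included receptor, transporter and vascular genes, and the cells that held their RNA were not identified. The ammonia channel gene *Rhcg* (-3.02 ± 0.52), *Zfp493* (-3.0 ± 0.49) and *Tmco5* (-2.70 ± 0.40) separated the groups fully. *Gm10320* was lower by the fit (-3.14 ± 1.0, edgeR adjusted p = 0.0194), but its groups overlapped, at 3.99, 8.29, 0.398 and 0.593 CPM against 1.03, 0.140, 0.452 and 0.118 CPM, and it lost its call without sham-vehicle mouse 2, LPS-CPD-4645 mouse 2 or LPS-CPD-4645 mouse 4 (edgeR adjusted p = 0.0953, 0.0624 and 0.0583) and under limma-voom (adjusted p = 0.249). *Selplg*, *Csf3r*, *Slco2b1*, the endothelial receptor gene *Tie1* (-1.10 ± 0.24) and the peptidase gene *Anpep* (-1.67 ± 0.29) were newly lower as well. *Slco2b1* and *Selplg* narrowly missed the call in LPS-vehicle against sham-vehicle mice, with log2 fold changes of -1.01 and -0.82 there (edgeR adjusted p = 0.0508 and 0.0554). The call of *Tie1* was lost without sham-vehicle mouse 2 or LPS-CPD-4645 mouse 4 (log2 fold changes -0.91 and -0.94). Of the 356 newly lower genes 251 are protein coding, and 45.5% overlap a gene on the other strand, against 40.9% of all genes tested.

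**Figure D4:**
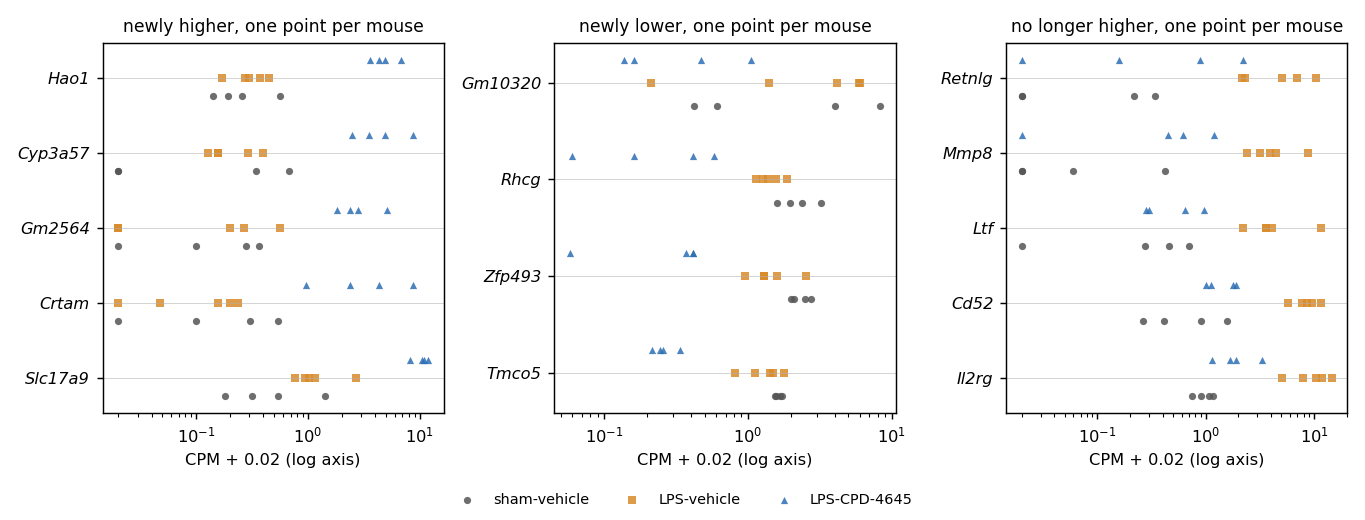
CPM + 0.02 on a log axis for leading coding genes of the newly higher (left, 5 genes), newly lower (middle, 4 genes) and no longer higher (right, 5 genes) classes, one point per mouse in each of the 3 groups. LPS-CPD-4645 mice (blue triangles) stand apart from both other groups in the left panel, for *Hao1* at 3.58 to 6.75 CPM. In the right panel *Retnlg* in LPS-CPD-4645 mouse 1 (2.21 CPM) lies within the LPS-vehicle range (orange squares), and in the middle panel the sham-vehicle (grey circles) and LPS-CPD-4645 groups of *Gm10320* overlap.

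Genes that were no longer higher were led by neutrophil granule and leukocyte genes. *Mmp8*, neutrophil collagenase, was at 0.399, 0, 0.0398 and 0 CPM in sham-vehicle mice and at 1.19, 0.595, 0 and 0.432 CPM in LPS-CPD-4645 mice, against a mean of 4.54 ± 2.53 CPM (SD, n = 5) in LPS-vehicle mice. The difference from sham-vehicle did not pass (1.89 ± 0.93, edgeR adjusted p = 0.118) and that from LPS-vehicle did (-3.18, edgeR adjusted p = 0.00317). *Mmp8* did pass against sham-vehicle without sham-vehicle mouse 1 (log2 fold change 4.75, edgeR adjusted p = 0.0104) or without LPS-CPD-4645 mouse 3 (2.36, 0.0325). Lactoferrin, encoded by *Ltf*, stood at 0.257, 0.684, 0.438 and 0 CPM against 0.949, 0.280, 0.263 and 0.628 CPM, an overlap of the groups (0.49 ± 0.71, edgeR adjusted p = 0.617). *Retnlg*, *Cd52* and the common gamma chain gene *Il2rg* had log2 fold changes of 2.29, 0.80 and 1.0 (edgeR adjusted p = 0.0963, 0.141 and 0.0354). *Il2rg* lay just under the 2-fold limit and passed under DESeq2 (1.02), with DESeq2 size factors (1.01), with the compared groups alone (1.03), with the replicate number as a block (1.0) and in the edgeR fits without sham-vehicle mouse 3, LPS-CPD-4645 mouse 2 or LPS-CPD-4645 mouse 3 (1.11, 1.07 and 1.21) or without LPS-vehicle mouse 1 or 2 (both 1.0). *Retnlg* passed without LPS-CPD-4645 mouse 3 (2.77) or without a filter on low counts (2.28), and *Cd52* without sham-vehicle mouse 1 (1.46). *Vwf*, *Tgfb1* and *Adamts4* belonged to this class too. Of 248 genes higher in LPS-vehicle and not called in LPS-CPD-4645 mice, 160 were not called between the treated groups and so are not shown to differ between them. Among the 5 no longer lower genes were *Padi4* and the choroid plexus gene *Ttr*, which stood at 312, 679, 325 and 536 CPM against 222, 550, 752 and 278 CPM (-0.04 ± 0.36, edgeR adjusted p = 0.949).

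Some cell type marker lists changed and others did not. The 15 neutrophil markers summed to 19.0 to 71.2 CPM in sham-vehicle and 689 to 937 CPM in LPS-CPD-4645 mice, and without *Lcn2*, which other cells also make, to 12.7 to 17.6 and 13.4 to 39.1 CPM (77.8 to 303 CPM in LPS-vehicle mice). The members *Csf3r* and *Padi4* held much of the sham-vehicle sum without *Lcn2*, with means of 4.82 and 4.65 CPM. Their means in LPS-CPD-4645 mice were lower, at 1.47 and 2.92 CPM, so the sum understates the rise of the other members. Of 12 neutrophil markers tested 5 were higher, *Lcn2*, *Ngp* (2.55), *S100a9* (2.15), *S100a8* (1.98) and *Mmp9*, and 1, *Csf3r*, was lower; limma-voom called 2 higher. *S100a9* stood at 2.08, 1.57, 0.677 and 0.593 CPM in sham-vehicle and 8.38, 3.92, 1.77 and 9.34 CPM in LPS-CPD-4645 mice, with overlapping groups (edgeR adjusted p = 0.00663; limma-voom 0.242). Monocyte and macrophage markers summed to 24.1 to 33.7 CPM in sham-vehicle and 67.1 to 91.2 CPM in LPS-CPD-4645 mice, and without *Cd14* to 22.3 to 29.0 and 33.2 to 49.6 CPM, with 3 of 11 tested higher, *Cd14*, *Chil3* (2.70) and *Fcgr1* (1.35), and 0 lower. With the replicate number as a block 5 were higher and 1 lower, and under DESeq2 4 were higher and 1 lower. All 12 microglia markers had log2 fold changes below 0 and 7 were lower (median -1.46), while *Aif1* did not reach 2-fold, at 6.36, 7.08, 7.85 and 5.78 CPM against 4.11, 4.83, 3.12 and 3.18 CPM (-0.83 ± 0.21, edgeR adjusted p = 0.0046). Their part in the falls of microglial and in the rises of inflammatory genes was not tested.

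Among vascular and glial markers, 1 of 15 endothelial markers was higher (6.67%, against 6.11% of all genes tested) and 3 were lower (20%, against 4.98%), *Tek*, *Tie1* and *Kdr* (-1.02), with *Pecam1* at 36.6, 26.9, 31.2 and 22.7 CPM against 33.9, 34.4, 23.8 and 24.0 CPM (-0.02 ± 0.20, edgeR adjusted p = 0.942). Without LPS-CPD-4645 mouse 4, 1 endothelial marker was lower, and *Kdr* also lost its call without sham-vehicle mouse 1, sham-vehicle mouse 3 or LPS-CPD-4645 mouse 2 (log2 fold changes -0.89, -0.99 and -0.94). Of 15 pericyte and smooth muscle markers 4 were lower (median -0.61), among them the smooth muscle myosin gene *Myh11* (-1.24 ± 0.27), whereas *Pdgfrb* had a log2 fold change of 0.54 ± 0.13. *Gfap* rose from 124, 99.1, 94.8 and 63.3 CPM to 446, 375, 306 and 335 CPM (1.94 ± 0.19, edgeR adjusted p = 6e-07), and *Gjb6*, the astrocyte connexin 30 gene, rose by 1.26 ± 0.12, the 2 of 11 astrocyte markers that passed. None of the 12 neuron markers passed by edgeR, DESeq2 or limma-voom (median -0.10; 4 were lower at an unadjusted p under 0.05), and *Syp* had a log2 fold change of -0.07 ± 0.12. Of 12 oligodendrocyte markers 3 were lower, *Ugt8a* (-2.83 ± 0.16), an enzyme gene of myelin galactolipid synthesis, *Sox10* (-1.41 ± 0.11) and *Opalin* (-1.31 ± 0.13). *Ugt8a* was at 89.3, 69.0, 85.3 and 112 CPM in sham-vehicle and at 15.3, 14.4, 9.30 and 11.4 CPM in LPS-CPD-4645 mice. Of 7 ependymal markers tested 2 were lower, and the list summed to 107 to 186 CPM in sham-vehicle and 43.9 to 52.7 CPM in LPS-CPD-4645 mice, and without *Pltp* to 20.8 to 23.5 and 16.6 to 23.4 CPM. Fibroblast markers were lower in 4 of 11, *Slc47a1*, *Col3a1* (-1.38), *Col1a1* (-1.28) and *Slc6a13* (-1.08), and choroid plexus markers in 2 of 10, or 1 without sham-vehicle mouse 2 or LPS-CPD-4645 mouse 4. None of the platelet (4 tested) or erythrocyte (5 tested) markers passed by edgeR, DESeq2 or limma-voom (1 platelet marker was higher and 1 erythrocyte marker lower at an unadjusted p under 0.05), and 1 of 4 lymphocyte markers tested, *Gzma*, was higher (edgeR adjusted p = 0.0477); it had 1 count in the sham-vehicle group and lost its call under limma-voom (adjusted p = 0.289) and without any one of the sham-vehicle mice or LPS-CPD-4645 mouse 1. Without LPS-vehicle mouse 1, 2 or 5 *Gzma* was not tested and no lymphocyte marker was called, and 2 lymphocyte markers were higher under DESeq2 and without LPS-vehicle mouse 4.

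**Figure D5:**
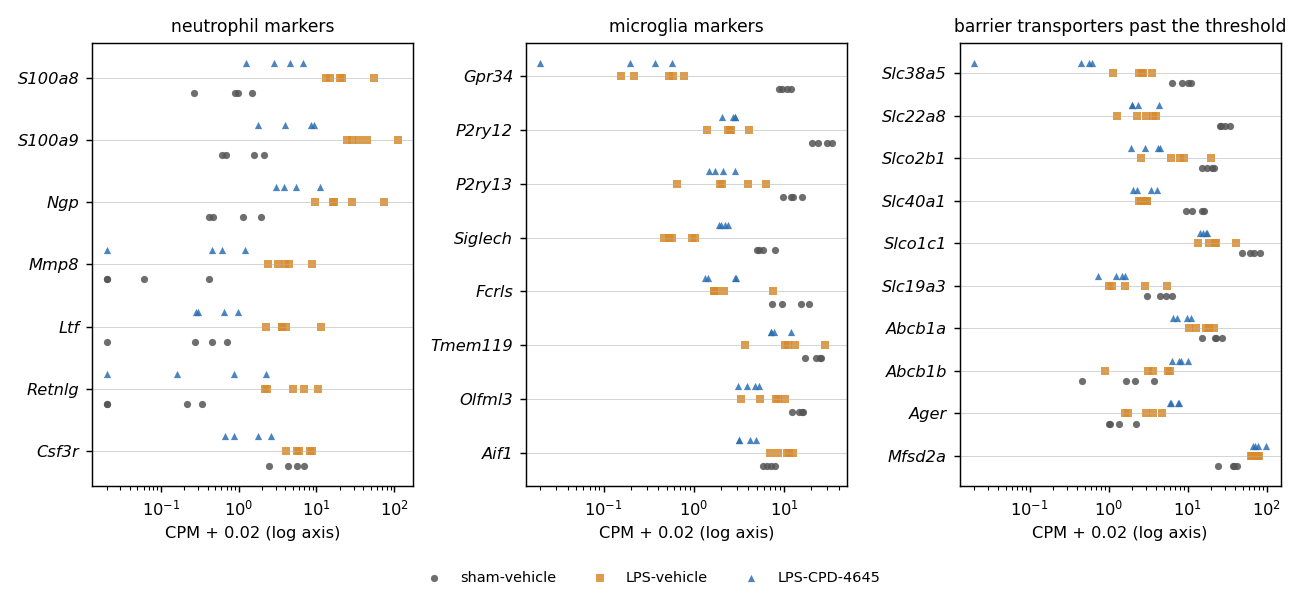
CPM + 0.02 on a log axis for neutrophil markers (left), microglia markers (middle) and the barrier transporters past the threshold (right), one point per mouse in each group. Microglia markers and 7 transporters lie lower in LPS-CPD-4645 than in sham-vehicle mice, with *P2ry12* at 2.03 to 2.85 against 20.3 to 34.0 CPM, while several neutrophil markers lie between the sham-vehicle and LPS-vehicle mice.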

How the data were processed

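Libraries from the isolated neurovasculature of 13 mice were sequenced by the authors; per the labels and methods the reads were demultiplexed with bcl2fastq 2.15.0.4 and aligned with STAR 2.5.2a to the mouse genome, and the deposited table holds raw read counts for 47643 genes, of which 47224 matched GENCODE M21 on GRCm38. The libraries were stranded (TruSeq Stranded mRNA kits) per the authors' methods, but the strand setting of the counts is not given there. Genes were filtered with filterByExpr (minimum count 10, minimum total 15), normalised by TMM and tested with edgeR 4.0.16 (R 4.3.3) by the quasi-likelihood test over all 13 libraries in 3 groups, with Benjamini-Hochberg adjustment and a threshold of adjusted p of at most 0.05 and 2-fold. The authors' methods name limma-voom, which was tried as an alternative (limma 3.58.1) beside DESeq2 1.42.0. The mice of a group are taken as separate animals. Named genes were the 10 largest rises and falls among coding genes at 1 CPM or more without overlap, up to 5 leading coding genes of each class and direction, up to 3 rises and 3 falls per list, and fixed genes of adhesion, matrix, cell types and the endocannabinoid system. Some genes that this rule names are not reported here. The members and lists were chosen with earlier results of these data known. The fit was tested on simulated counts.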

Additional observations from a re-analysis of the deposited data

Results flagged for a closer look

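For 163 named genes, the highest or lowest mouse of a group was compared with the other 3, and in 25 of 324 groups (7.72%) the gap to the nearest other mouse exceeded Dixon's limit of 0.829 of the group's range for 4 samples. Chance alone flags about 1 in 20 groups when values follow a normal distribution. CPM of genes with few counts need not follow it, so the 7.72% does not measure an excess of outlying mice.

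LPS-CPD-4645 mouse 2 stood apart in 6 of these groups. It was high for *Cxcl10* (433 CPM against 106 to 152), *Marco* (42.9 against 20.9 to 22.2), *Rsad2* (31.5 against 14.1 to 16), *Mmp12* (6.78 against 0.785 to 1.66) and *Fga* (2.83 against 0.432 to 0.602), and low for *Mmp15* (9.16 against 12 to 12.5). LPS-CPD-4645 mouse 1 was high for *Slc22a8* (4.35 CPM), *Gzma* (0.949) and *Adamts9* (28.9) and low for *Pltp* (26.3). LPS-CPD-4645 mouse 3 was low for *Zfp493* (0.0376 CPM). LPS-CPD-4645 mouse 4 was high for *Slc47a1* (0.903 CPM) and low for *Map3k6* (55.0) and *Tie1* (5.14).

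Sham-vehicle mouse 1 was high for *Sele* (0.428 CPM, with no count in the other 3), *Mmp8* (0.399), *Cdc20* (2.85) and *Adamts1* (15.1). Sham-vehicle mouse 2 was high for *AU021092* (8.16 CPM) and *Hspb1* (7.40). Sham-vehicle mouse 3 was high for *Gzma* (0.0398 CPM) and low for *Atf3* (0.876). Sham-vehicle mouse 4 was low for *Ifi47* (0.741 CPM), *Fzd4* (6.17) and *Tgfb1* (3.85).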

How the results depend on the processing

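The counts of 1056 higher and 861 lower genes stayed within 1.5 times under limma-voom, DESeq2, DESeq2 size factors, other filters, a fit of the compared groups alone and each left-out library. The test against a 2-fold change gave 404 and 157, with 252 genes staying higher, 27 staying lower, 28 newly higher, 19 newly lower, 11 no longer higher and 0 no longer lower; fewer genes can pass a test that asks for more than 2-fold. A mean count of at least 50, which tests fewer genes, gave 78 newly higher and 1 no longer lower gene. The 5 no longer lower genes became 10 under limma-voom, 14 under DESeq2, 10 without a filter and 2 with the compared groups alone, and the cause was not tested. With the replicate number as a block, 1046 genes were higher, 836 lower and 11 no longer lower. Same-numbered mice of different groups correlated at -0.03 to 0.11 in their deviations, so the numbers were not taken to pair the mice.

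Leaving out 1 library at a time gave 969 to 1065 higher, 771 to 896 lower, 506 to 566 staying higher, 94 to 116 staying lower, 165 to 201 newly higher, 299 to 411 newly lower and 70 to 100 no longer higher genes. No longer lower genes ranged from 2 (without LPS-vehicle mouse 1) to 12 (without LPS-vehicle mouse 3 or 5; 11 without mouse 2). Log2 fold changes near 0 changed sign, ranging from -0.39 to 0.22 for *Ttr*, -0.14 to 0.089 for *Tgfb1*, -0.12 to 0.10 for *Pecam1* and -0.16 to 0.020 for *Syp*. Of 144 named genes that passed, 117 were tested in all 20 settings other than the test against 2-fold, and 105 of these kept their call in each; under the test against 2-fold 53 named genes lost it. Depth limits genes under about 1 CPM, for which a mouse holds few counts.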
